A study of Mus musculus with 3 samples.

Results

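The genes described here were brightest on day 1 of a time course of Gata6 overexpression in mouse embryonic stem (ES) cells and were dimmer both before and after. They were chosen on the measured signals: a gene was taken where its day 1 signal was 100 or more and at least 2 times both its day 0 and its day 2 signal, with signals under a floor of 54 set to that floor. Of 18193 genes read by a probe set of their own, 96 met this rule, or 0.528% of those compared. They included the fructose bisphosphatases Fbp1 and Fbp2, the cytochrome P450 Cyp4f14, the receptors Fgfr2 and Epha4, the chromatin protein Hmga2 and the pseudokinases Trib1 and Trib2. Since the rule used all 3 arrays, the values below describe these arrays and test nothing.

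ES cells are pluripotent cells derived from the early embryo, and Gata6 is a DNA-binding factor that specifies the primitive endoderm, which forms yolk sac tissue outside the embryo proper. Per the series' text, the cells were engineered so that the Gata6 they overexpress responds to an agent given as dex. The groups are a day 0 control, day 1 and day 2 of overexpression, with 1 array each and no replicates. The dose of dex, the line or clone, and whether the day 0 cells carried the modification are not stated in the labels, so a difference between days can also be one between single cultures or cell populations. No group is labelled as dex without Gata6 overexpression, so effects of dex and of Gata6 cannot be told apart.

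Gata6 itself read 109.6 on day 0, 5573 on day 1 and 6071 on day 2, so it was high on both later days. The 8 primitive endoderm markers listed had summed signals of 4219, 69442 and 115726 on the 3 days, and the 8 ES cell markers 120149, 54640.3 and 46709. Most of the ES cell sum on the later days came from 1 marker, Dppa5a, which read 40750, 37048.5 and 36743. Each of the other ES cell markers fell at both steps. Nanog, a core pluripotency factor, read 14628, 3441 and 1842. Of the 6 feeder fibroblast markers, 3 (Col1a1, Col3a1, Postn) never left the floor, and the summed signal was 722, 394 and 411. The 3 markers of 2-cell-like cells, a rare ES cell state, summed to 467.5, 1113 and 3789. None of these sums was highest on day 1, and their part in the day 1 peaks was not tested.

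When a cell is pushed from one identity to another, many genes settle at a new level, while others are switched on briefly and then decline. A short peak of messenger RNA needs synthesis that stops again and a transcript that decays within the interval sampled. Genes with such a course are known among signalling regulators, transcription factors of intermediate states and enzymes. A bulk array cannot tell fewer expressing cells from less RNA per cell.

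The bases before the start sites of a few members are shown because GATA factors bind short DNA sites and because 2 of these genes are neighbours that share the day 1 peak. Shkbp1 had the brightest day 1 signal, Akr1c13 was at least 21.1-fold higher on day 1 than on day 0, and Fbp2 and Fbp1 lie next to each other on chromosome 13 with no protein-coding gene between them. The sequences are the 250 bases upstream of the annotated start, from RefSeq on build GRCm38.p6, written 5′ to 3′ along the gene's strand: Shkbp1 at chr7:27356009-27356258 (minus strand), Akr1c13 at chr13:4190937-4191186 (plus strand), Fbp2 at chr13:62858401-62858650 (minus strand) and Fbp1 at chr13:62888283-62888532 (minus strand). Capitals mark the letters searched for on both strands as a GATA site, which are AGATAA with its variant AGATAG as well as TGATAA with its variant TGATAG.
Shkbp1: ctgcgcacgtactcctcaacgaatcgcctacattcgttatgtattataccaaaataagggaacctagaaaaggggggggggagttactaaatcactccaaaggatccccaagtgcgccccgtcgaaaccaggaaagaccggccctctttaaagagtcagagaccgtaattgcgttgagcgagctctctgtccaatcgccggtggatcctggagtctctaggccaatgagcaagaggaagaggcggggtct
Akr1c13: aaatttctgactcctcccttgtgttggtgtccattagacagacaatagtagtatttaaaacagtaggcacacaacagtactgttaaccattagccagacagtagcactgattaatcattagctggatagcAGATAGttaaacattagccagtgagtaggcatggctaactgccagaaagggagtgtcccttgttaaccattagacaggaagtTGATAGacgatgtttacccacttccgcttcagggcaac
Fbp2: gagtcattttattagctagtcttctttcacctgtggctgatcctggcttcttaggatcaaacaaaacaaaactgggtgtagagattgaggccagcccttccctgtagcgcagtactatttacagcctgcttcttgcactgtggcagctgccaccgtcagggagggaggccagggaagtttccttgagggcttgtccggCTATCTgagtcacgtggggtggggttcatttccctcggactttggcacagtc
Fbp1: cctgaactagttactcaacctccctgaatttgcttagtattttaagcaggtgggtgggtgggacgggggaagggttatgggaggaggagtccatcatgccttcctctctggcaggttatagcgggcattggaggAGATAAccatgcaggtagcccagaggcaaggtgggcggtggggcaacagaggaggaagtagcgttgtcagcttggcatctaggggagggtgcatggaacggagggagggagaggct

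The Akr1c13 window held such letters 120 and 38 bases before the start, Fbp1 116 bases and Fbp2 52 bases before it, the last on the opposite strand. The Shkbp1 window held none. Over all members, 72 of 96 genes had a promoter in the RefSeq table, with 95 promoters in all. The GATA letters stood in 21 of the 95, or 22.1%, against 26.5% of all 32851 promoters and 20.2% of the 18009 promoters of genes on the array. Shares were likewise read for AGAACA, the hexamer that a glucocorticoid receptor monomer contacts (10.5% of member promoters against 12.5% of those of array genes), TGACTCA, the AP-1 site (7.37% against 3.96%), CACGTG, an E-box (3.16% against 7.39%), TATAAA (7.37% against 8.8%), GGGCGG, a GC box (45.3% against 48.4%), and ACAAAG, a SOX or TCF type site (14.7% against 14.1%), each on both strands. The AP-1 letters stood in 7 of the 95 member promoters, which belong to 5 genes, and several of the 7 are promoters of Dmkn alone. Each of these motifs is a match of letters in a window and not a measured binding site.

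The members amount to 0.528% of the 18191 genes compared, which leave out genes the rule sets aside, and to 0.935% of the 10268 whose day 1 signal was 100 or more. By the mirrored rule, with day 0 and day 2 at 100 or more and at least 2 times day 1, 85 genes (0.467%) had a trough on day 1. Of 70 olfactory and vomeronasal receptor genes, which ES cells should not express, 0 met the peak rule, and 1 of the 70 had a day 1 signal of 100 or more, so few of them could have met it. Day 1 was at least 2 times day 0, at a signal of 100 or more, in 816 genes (4.49%). Of those, 571 stayed within 2-fold of day 1 on day 2, 149 were at least 2-fold higher again, and the 96 described here were at least 2-fold lower. Day 1 was at least 2 times day 2 in 492 genes (2.7%).

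**Figure D1:**
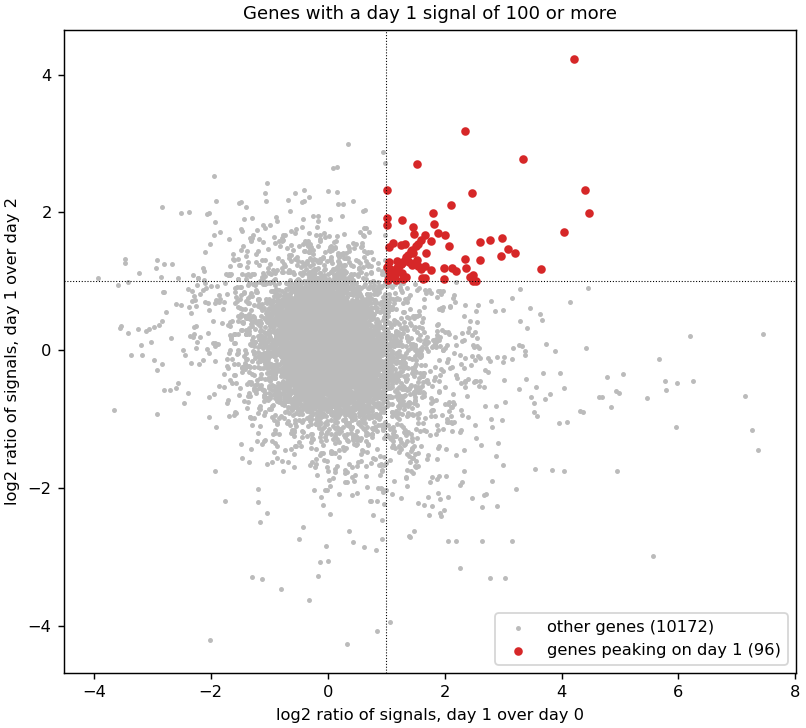
Each point is 1 of the genes with a day 1 signal of 100 or more; the x axis is the log2 ratio of the day 1 to the day 0 signal and the y axis that of the day 1 to the day 2 signal. The 96 members (red) lie above and right of the dotted lines at a log2 ratio of 1, with Cyp4f14 at the top.

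Most members were moderate or dim. Here bright and dim refer to the array signal, which differs between probe sets for reasons other than transcript number and so does not rank genes by abundance. The day 1 signal lay between 100 and 200 in 41 members, between 200 and 1000 in 39, between 1000 and 5000 in 14 and above 5000 in 2. Its median was 281 (lowest 109.8, highest 11460.2), against 720 over all genes with a day 1 signal of 100 or more. The median log2 ratio of day 1 to the brighter of the other days was 1.22, with a range of 1.00 to 4.22, and 16 members reached 3-fold. The only error at hand is the spread between probe sets of 1 gene, short groups of probes that read different stretches of its transcript: the SD of a log2 ratio between 2 arrays was 0.47 where signals were under 200, 0.33 up to 1000, 0.20 up to 5000 and 0.13 beyond. A 2-fold ratio, 1 on the log2 scale, is about as far from 0 as 2 such SDs where signals are under 200. The SDs come from probe sets above the floor on both arrays. They do not cover ratios to a signal at the floor, where 42 members stood on day 0 and 33 on day 2. The members were also picked for high ratios among 10268 genes with a day 1 signal of 100 or more, so 2 SDs give their peaks no support. The spread says nothing of how much separate cultures would differ.

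What followed the peak differed among the members. On day 2, 18 members were still at least 2 times their day 0 signal, 48 were within 2-fold of it and 2 were at least 2-fold below it. The other 28 were at the floor on both day 0 and day 2. Over all genes, day 2 was at least 2 times day 0 in 8.43% and at least 2-fold lower in 7.69%. Among the brightest of the 18 that kept part of the increase were Marcks, Fbp2, Cpn1 and Fgfr2. The 2 that ended at least 2-fold below their start were Arhgdib, at 488, 984 and 197 on day 0, day 1 and day 2, and Apobec2, a member of the cytidine deaminase family, at 137, 395 and 61.0.

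**Figure D2:**
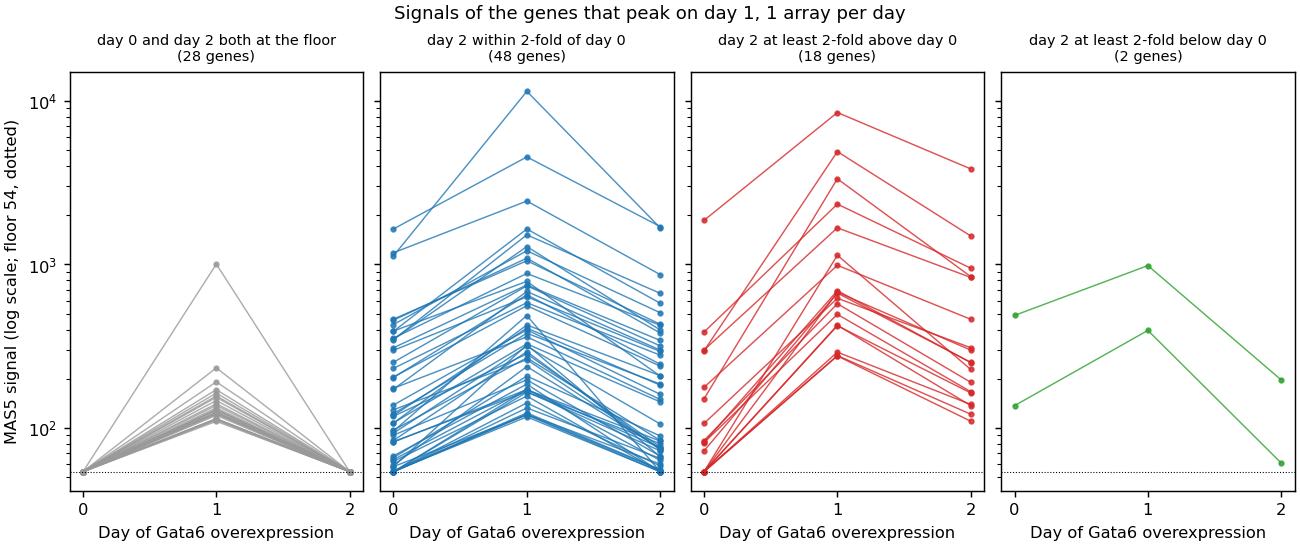
The MAS5 signal of every member (y axis, log scale) is plotted by day (x axis), 1 line per gene, in 4 panels by the day 2 signal relative to day 0. The panels hold 28, 48, 18 and 2 genes, and the dotted line is the floor of 54.

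Metabolic enzymes made up 12 of the members and held the highest ratio. Groups by role were drawn up after the members were known, and so were the choices of members named as examples beyond the rule for named genes. The share of each role over all genes was not computed, so nothing is read from the counts by role. Cyp4f14, a cytochrome P450 that hydroxylates fatty acids and leukotrienes, was at the floor on day 0 and day 2 and read 1006 on day 1, at least 18.6-fold above both. No other member came near that ratio. Of its relatives on the array, Cyp4f13 read 194, 168 and 229.6 on the 3 days and Cyp4f16 read 303, 363 and 343, so the peak was seen in Cyp4f14 and not in these.

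Fructose bisphosphatases catalyse the step that sets the pace of gluconeogenesis, the making of glucose from smaller molecules. Fbp2, the muscle form, read 296 on day 0, 4902 on day 1 and 1494 on day 2, a 16.5-fold difference between the first pair of days. Fbp1, the liver form, was dimmer at 97.0, 268.5 and 83.9. Both genes of this family that the array read were therefore highest on day 1, though Fbp2 kept part of its increase and Fbp1 ended near its start. Pgam2, the muscle form of phosphoglycerate mutase in the same pathway, was at the floor on day 0 and day 2 and read 233 on day 1, while its ubiquitous relative Pgam1 read 16171, 13949.5 and 11321.

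Akr1c13, an aldo-keto reductase that acts on steroids and other carbonyl compounds, was at the floor on day 0 and read 1139 and 228 on day 1 and day 2. Its close relative Akr1c12, which is no member, was at the floor on day 0 and read 1179.9 and 629, and so fell just short with a ratio of 1.87 to day 2. A further probe set annotated to Akr1c13 together with another gene read 67.2, 2399.8 and 957. Signals of genes this similar cannot be cleanly told apart by hybridisation.

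Enzymes of lipid synthesis were also among the members. Mogat2, which makes diacylglycerol in fat absorption, read 83.7, 575.5 and 190.3 on the 3 days. Gpat3, which starts glycerolipid synthesis, read 177, 988 and 462. Both remained at least 2-fold above day 0 on day 2. Pnmt, which makes adrenaline, was near background before and after at 64.0 and 63.4 and read 172 on day 1. The other probe sets of Pnmt reached at most 57.5. The reductases Dhrs7 (355, 881 and 425) and Msrb2 (457, 1092 and 381) returned to near their start.

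Among 10 secreted factors and proteases, Cpn1 stood out. It encodes the catalytic subunit of carboxypeptidase N, which trims peptides in plasma, and read 151 on day 0, 3342 on day 1 and 843 on day 2. Day 1 was 22.2-fold above day 0. Its second probe set, with a deposited day 1 signal of 176, was under the floor on day 0 and day 2. Dmkn, a secreted protein of epithelia, read 81.5, 692 and 251, and Cstdc1, a cystatin domain protein, read 58.1, 322 and 66.7. Mep1b, a subunit of the brush border protease meprin, read 205, 559 and 239.

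Signalling peptides and antagonists were also in this group. Apela, a peptide hormone that acts on the apelin receptor in the early embryo, read 392, 788 and 208, and so ended below its start. Its receptor Aplnr read 69.4 on day 0 and reached no value above the floor later. Hhip, which binds and blocks Hedgehog ligands, was at the floor on day 0 and day 2 and read 171.5 on day 1, with 3 further probe sets all highest on day 1 at 100.4, 72.6 and 67.0. Enho, the precursor of adropin, had a signal of 154 on day 1 and the floor value otherwise, but its 3 other probe sets read at most 59.8.

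**Figure D3:**
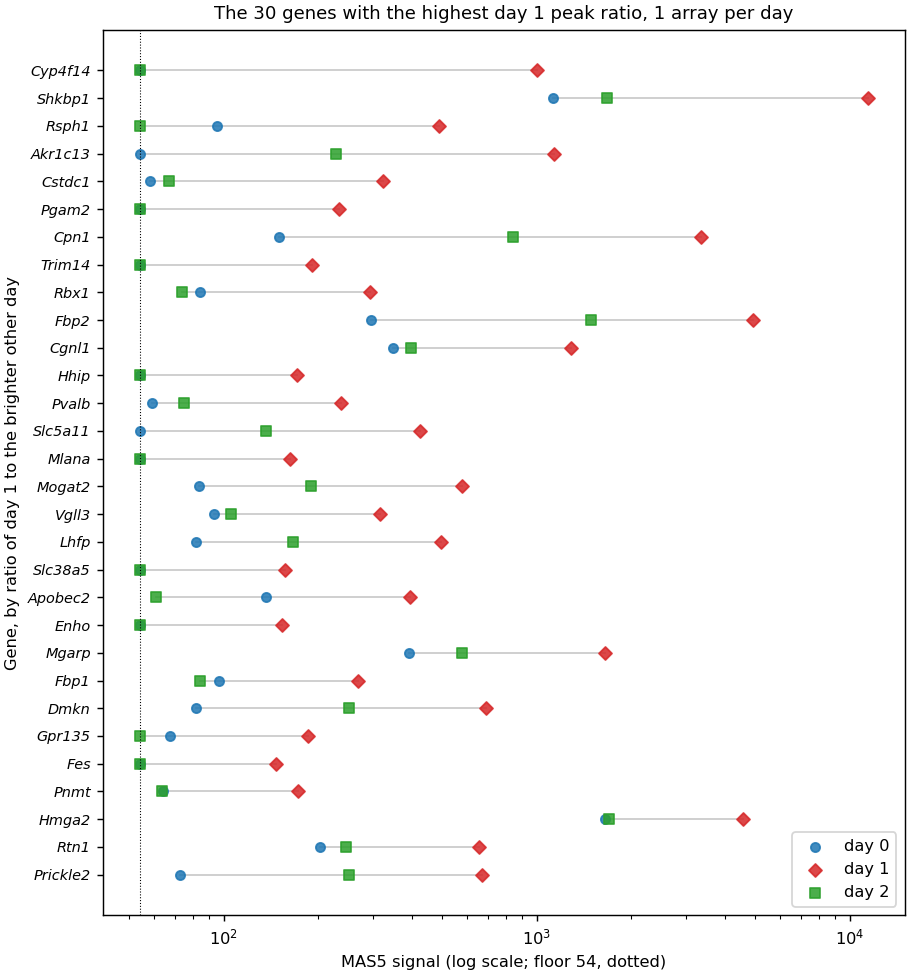
The signals on day 0 (circle), day 1 (diamond) and day 2 (square) are plotted on a log axis for the 30 members with the highest ratio of day 1 to the brighter other day. Cyp4f14, Pgam2, Trim14 and several others start and end at the floor of 54, whereas Shkbp1, Cpn1, Fbp2 and Hmga2 are well above it.

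The brightest member was Shkbp1, an adaptor that binds SH3KBP1 and has been linked to receptor endocytosis. It read 1128 on day 0, 11460.2 on day 1 and 1676 on day 2. Day 1 was 10.2-fold above day 0 and 6.84-fold above day 2. It has 1 probe set on the array that is annotated to it alone.

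Of 15 signalling proteins inside the cell, a pair of Tribbles pseudokinases had similar courses. These proteins bring ubiquitin ligases to their targets. Trib2 was at the floor on day 0 and read 422 and 164 on day 1 and day 2, and Trib1 read 172.5, 684 and 299.6. The Trib2 probe set carries an unspecific suffix. Another read 57.8, 95.9 and 63.0, and the remaining one was at the floor on each day. The second probe set of Trib1 left the floor only on day 1, at 81.0. With the mean over probe sets neither gene was a member, and Trib2 was also lost with unspecific probe sets left out. The third gene of the family, Trib3, read 1802, 801 and 342 and so declined throughout. Prickle2, a planar cell polarity protein, read 72.4, 668.5 and 252, and Pdzd3, a scaffold for membrane receptors and transporters, was at the floor on day 0 and read 677 and 299.5 thereafter. Both kept part of the increase on day 2. Trim14, an adaptor of innate immune signalling, and Fes, a tyrosine kinase, were at the floor on day 0 and day 2 and read 191 and 147 on day 1. The second probe set of Trim14 was at the floor on each day, and that of Fes read 99.6 on day 1 and 58.6 on day 2.

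The fixed list of FGF, ERK and receptor tyrosine kinase genes held 3 members of 42 measured genes, beside 96 of all 14255 measured genes. Measured here means above the floor on at least 1 array. It is also the list with the most measured genes, and with the mean over probe sets it held 1 member. The list's median log2 ratio of day 1 to the brighter other day was -0.83, against -0.27 over all 14255 genes measured, so the list as a group was not at its highest on day 1. Fgfr2, a receptor for the FGF signals that guide primitive endoderm formation, read 386, 2340.5 and 949.5, with 6.06-fold between day 0 and day 1 and 2.46-fold back. A second probe set read 234.6, 2202 and 837 and met the same rule, and the remaining one was at the floor on each day. Both of the brighter ones carry a suffix counted here as unspecific, _s_at on the representing probe set and _a_at on the other. With such probe sets left out only the one at the floor remained, with a log2 ratio of 0. With the mean over probe sets the log2 ratio was 0.90, so Fgfr2 was no member under either choice. The receptor Fgfr3 stayed high on day 2 at 785 after 824 on day 1 and 181 on day 0, and Fgfr4 was highest on day 2 at 784.5.

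Epha4, a receptor for ephrins that steer cell contacts, read 347, 1518 and 666. Of its 4 other probe sets, all were highest on day 1 and 2 met the rule, the brighter of them with 154, 1564 and 689.9. Dusp4, a phosphatase that switches off ERK in the nucleus, read 298, 634 and 294. Dusp6, its relative in the cytoplasm, read 1716, 184 and 84.7 on the same arrays and so took the opposite course to Dusp4 between day 0 and day 1.

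The other receptors were dim. The 12 receptors had a median day 1 signal of 138, and apart from Fgfr2 and Epha4 their peak rested on signals under 200. Gpr135 read 67.5, 185 and 54, Adcyap1r1, a receptor for the neuropeptide PACAP, read 62.4, 157 and 54, and Ror1, a receptor of Wnt5a, was at the floor apart from 129.0 on day 1. Other probe sets of these genes reached at most 85.7 for Gpr135, 71.6 for Adcyap1r1 and 86.2 for Ror1. The 71.6 was on day 2. Havcr1, a phosphatidylserine receptor of injured kidney epithelium, read 54, 165 and 80.1 and had a second probe set that met the rule with a deposited day 1 signal of 134.0.

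Of 9 transcription and chromatin factors, Hmga2 was by far the brightest. It is an architectural chromatin protein of embryonic cells and read 1649 on day 0, 4549 on day 1 and 1705 on day 2, returning to its start. Further probe sets of it with 1517, 3914 and 1644.5 and with 774, 1949 and 853.5 followed the same course. Vgll3, a cofactor of TEAD transcription factors, read 93.0, 315.5 and 106, and its second probe set read 105.3, 225 and 88.2.

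The other transcription and chromatin factors were dimmer. Foxa1, a pioneer forkhead factor of endoderm, was at the floor on day 0 and read 276 and 110.0 on day 1 and day 2. Foxa2, of the same family, was at the floor on day 0 and went on from 1401 on day 1 to 2259 on day 2, so only Foxa1 of the pair declined. Bhlha15, a factor of secretory cells, was at the floor on day 0 and read 277 and 121, and Creb3l3, a membrane-bound factor of liver and intestine, read 291 and 139 after the floor on day 0. Neurog3, the factor of pancreatic endocrine progenitors and the 1 member on the neural ectoderm list (1 of 9 measured), read 65.8, 207.5 and 89.4, and its second probe set reached 58.3 on day 1. Egr4, Brdt and Nkx2-9 were at the floor before and after, with day 1 signals of 124, 128 and 112.

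Adhesion, junction and matrix genes contributed 8 members. N-cadherin (Cdh2), the 1 member on the epithelial and mesenchymal list (1 of 16 measured), read 138, 398.5 and 161, and its second probe set read 75.6, 276 and 130.1. Cdh4, or R-cadherin, read 107.5, 327 and 144, with a second probe set at 327.9 on day 1, against the floor on day 0 and 98.4 on day 2. E-cadherin (Cdh1), by contrast, read 3130.5, 1249 and 1481 and was lowest on day 1. Cgnl1, the junction protein paracingulin, read 348, 1286 and 398, and 3 of its 4 other probe sets were highest on day 1.

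Cytoskeletal and vesicle proteins were 7 members. Marcks, which cross-links actin at the membrane, read 1861, 8501 and 3842, and 5 of its 6 other probe sets were highest on day 1, while 1 dim one read 171, 67.3 and 104. Cdc42ep3, an effector of the GTPase Cdc42 and the 1 member of 32 measured genes on the list of cytoskeleton and migration genes, read 309, 749 and 343, and its second probe set read 167.5, 356 and 127. Rsph1, a radial spoke protein of motile cilia, read 95.6, 487 and 54. Rtn1, a reticulon of the endoplasmic reticulum, read 203.5, 652 and 245, and Nefl, the light neurofilament chain, read 252, 740.2 and 318.

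Transporters and channels numbered 7. Gjb5, a connexin of gap junctions, was the brightest with 1179.5, 2443 and 867. The chloride channel Clcn2 read 463, 1054 and 431. Slc5a11, a sodium-coupled transporter of myo-inositol, was at the floor on day 0 and read 425 and 137 on the later days, and Slc7a2, a carrier of cationic amino acids, read 119, 408 and 183. The other probe sets of Slc7a2 reached at most 63.4. Slc38a5, a glutamine transporter, had a signal of 157 on day 1 and the floor value otherwise.

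Among the remaining 16 members, Tmx4, a thioredoxin-like protein of the endoplasmic reticulum, read 299.6, 1676 and 833, and Mgarp, a mitochondrial protein, read 390.2, 1648 and 579. Parm1 read 429, 1213 and 507, Lhfp read 81.4, 495.5 and 167, Pvalb, a calcium buffer, read 59.2, 237 and 74.9, and Mlana read 163 on day 1 and the floor otherwise. Rbx1, the RING subunit of cullin ubiquitin ligases, was a member through a probe set that read 83.9, 293 and 73.4. The 2 brightest of its 5 probe sets that are annotated to a second gene as well read 9386, 8142.5 and 7947, and 12184, 11856 and 11037. The peak was thus not seen in the far brighter signals that include Rbx1.

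At the 2-fold threshold, the 3 members just inside were Col13a1 (106.5, 621 and 309.7, ratio 2.01), Tmx4 (ratio 2.01) and Apela (ratio 2.01). The 3 genes just outside were Zfp820 (429, 856 and 408), Mettl7a2 (the floor, 107 and the floor) and Slc9a5 (99.7, 243 and 122), each with a ratio of 1.99 or 2.00. The threshold therefore fell between genes of nearly equal ratio.

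Other probe sets of the same genes gave a second reading on the same arrays. Of the 96 members, 46 had a single probe set and 50 had others, 95 in all, of which 31 were at the floor on each array. Of the 64 above it, 50 were highest on day 1 and 17, from 11 members, met the full rule. Among the 31 with a day 1 signal of 100 or more, from 19 members, 30 were highest on day 1. Since a day 1 signal of 100 is part of that choice, the share is a description; of 8075 such probe sets of other genes, 29.2% were highest on day 1 and 0.557% met the rule. The 1 exception was Celf4, with 248, 219 and 96.1 on one probe set. In 7 members, Ap3b2, Adcyap1r1 and Bhlha15 among them, another probe set was above the floor and none was highest on day 1.

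**Figure D4:**
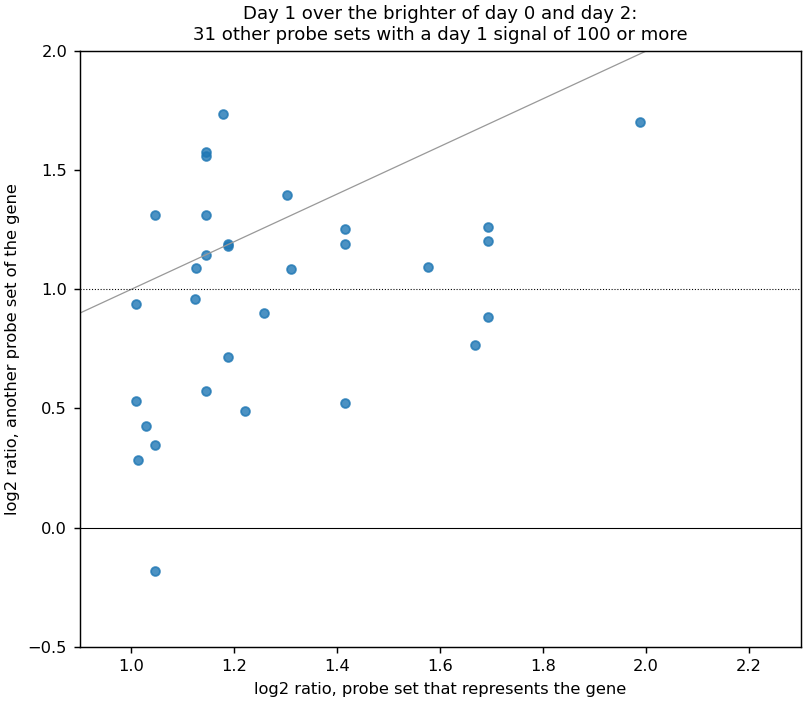
Each point is 1 of 31 other probe sets of members with a day 1 signal of 100 or more; the x axis is the log2 ratio of day 1 to the brighter of day 0 and day 2 on the probe set that represents the gene and the y axis the same on the other one. The points lie above 0 in 30 cases and at or above the dotted line at 1 in 17, and the grey line marks equal ratios.

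Of 24 gene lists with 451 measured genes, 5 held a member and 19 held none, and 6 members stood on a list. Fgfr2 was the 1 member of 21 measured primitive endoderm regulators, 18 of which were at least 2-fold higher on day 1 than on day 0. The lists of parietal endoderm and basement membrane (19 measured), visceral endoderm (16), pluripotency (23), Wnt (30), BMP and TGF-beta (37), Notch (20), immediate-early (26), glucocorticoid response (19), p53 and cell death (18), stress response (17), retinoic acid (12) and cell cycle genes (28) held 0 members. The same held for mesendoderm (14), primed and formative epiblast (17), Hippo and YAP (18), trophectoderm (16), DNA methylation and chromatin (23), fibroblast (5) and 2-cell-like genes (5). With members at 0.528% of all genes, nothing is read from these zeros. The lists do not hold every gene of a family. The members Bmp10, at the floor apart from 121.5 on day 1, and Egr4 stood on none of them. Positions on chromosomes were read for the 91 protein-coding members only. These were spread over all autosomes and the X, with 8 on chromosome 7 and 1 on the X. The share of all genes on each chromosome was not computed, so nothing is read from these counts. Besides Fbp2 and Fbp1, the pair Psd3 and Sh2d4a lay side by side, and 1 protein-coding gene lay between Col13a1 and Neurog3.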

How the data were processed

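Expression was measured on 3 Affymetrix arrays, 1 per day, grouped by the day in the labels. The authors deposited 1 intensity value for each probe set on a linear scale; MAS5, which weighs matched against mismatched probes, is the tool that the submitters' processing notes name, without a version. Their 2% trimmed means were 497.5, 497.6 and 497.7 and their medians 84.2, 81.8 and 86.4, which shows a common scaling before deposit; it assumes equal total signal on each day. Of 45101 probe sets, 64 were controls, 34945 had 1 gene, 932 several and 9160 none. Symbols were updated by gene identifier from RefSeq GRCm38.p6, with 34741 matched.

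Signals under 54 were set to 54, and each gene took its probe set of highest mean log2 signal. Where the dimmer signal was at the floor, a fold is a lower bound. With 1 array per day, there is no test; the number of arrays limits the precision. The members and the gene lists were chosen with earlier results of these data known. Named genes were the 30 with the highest ratio, the 10 brightest on day 1, those on a list, and the 3 on each side of the threshold. Genes that the rule left out are not reported here. The alternatives were 3 treatments of low signals, 2 scalings, 2 choices of probe set, other folds and a higher day 1 minimum. Probe sets counted as unspecific were those with the suffix _s_at, _x_at or _a_at. The selection code was run on simulated signals with planted peaks, which checks the code and says nothing of the error in these arrays. Promoter letters were searched upstream of the start in the RefSeq table. Python 3.11.15 with pandas 2.3.3, numpy 2.4.6 and statsmodels 0.14.6 was used.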

Additional observations from a re-analysis of the deposited data

Results flagged for a closer look

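Probe sets without a single gene were not part of the comparison. Among them, 23 met the day 1 peak rule: 2 of 932 annotated to several genes (0.215%) and 21 of 9160 annotated to none here (0.229%). The highest ratio was that of 1427277_at, with 86.1, 398 and 54.4 on day 0, day 1 and day 2.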

How the results depend on the processing

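The number of members depended on how dim signals were handled. It was 96 as reported, 98 with a floor of 25, 105 with quantile normalization, 102 with loess scaling and 89 with unspecific probe sets left out. It was 56 with a floor of 100, which by construction needs a day 1 signal of 200, 51 with a pseudocount of 50 in place of the floor, and 59 with the mean over a gene's probe sets. A 1.5-fold threshold gave 280 genes, a 3-fold one 16, and a day 1 minimum of 200 gave 55. Of the 96, 29 met the rule under all 7 alternatives of floor, scaling and probe set: 0 of the 41 with a day 1 signal under 200, 18 of 39 from 200 to 1000, 10 of 14 from 1000 to 5000 and 1 of 2 above. The 0 of 41 follows from the floor of 100 and is no result about dim genes. The 46 members with 1 probe set cannot change with the mean over probe sets. The median log2 ratio of the members lay between 1.02 and 1.32. With the mean over probe sets, the FGF and ERK list held 1 member, the primitive endoderm and neural lists 0 and the cytoskeleton list 2. The neural list also held 0 with the pseudocount, and the primitive endoderm list 0 with unspecific probe sets left out. No ratio of a named gene turned below 0 in the alternatives where it could be computed; that of Fgfr2 was 0 with unspecific probe sets left out, an alternative under which Mgarp, Fes and Mettl7a2 had no value. The cause of these shifts beyond the construction named was not tested. No paired analysis was possible because each day has 1 array.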

Other observations

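A further 45 probe sets met the day 1 rule but belong to 42 genes that another, brighter probe set represents, so these genes are not among the 96.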
